A study of Mus musculus with 1 sample.

Results

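The genes examined here were the T cell coreceptor genes Cd4, Cd8a and Cd8b1 and the lineage transcription factor genes Zbtb7b and Runx3, 5 of the 32285 genes in the count matrix. They were chosen by name, and their unique molecular identifiers (UMIs, the tags that count captured RNA molecules) were read in every barcode with an assembled T cell receptor (TCR). The data came from 1 library, made from blood T cells of 1 vehicle-treated mouse with small cell lung cancer. In this model the tumor suppressor genes Rb1 and Trp53 are conditionally deleted after Adeno-Cre virus is given into the trachea, on a C57BL/6 background, and the vehicle was phosphate-buffered saline given every 3 days. The age of this mouse is not given in the sources used here. Cells from 150 µl of blood were enriched for T cells by removing other cells with antibodies, so the library describes circulating cells and not the tumor. The study set vehicle against combined anti-PD-1 and ERBB2 inhibitor treatment, and the combination was not analysed here. With 1 library there is no replicate, so no test between conditions was possible, and every interval below is an exact 95% interval that covers counting error only. Where a count was 0, the limit given is that of 3 counts unless it is called exact, and it limits cells with a UMI, not cells expressing the gene.

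CD4 and CD8 are the surface coreceptors that sort T cells into helper and cytotoxic lineages. CD4 binds MHC class II and CD8 binds MHC class I, and both bring the kinase Lck to the TCR. Cd8a and Cd8b1 encode the α and β chains, which pair on conventional cytotoxic T cells. Zbtb7b encodes ThPOK, the factor that holds cells in the helper lineage and restrains the cytotoxic program. Runx3 encodes the factor that silences Cd4 and supports the CD8 program, and each factor restrains the gene of the other.

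On GRCm38.p6, Cd4 (ENSMUSG00000023274) lies on chromosome 6 from 124864693 to 124888247. Cd8b1 (ENSMUSG00000053044; 71322788 to 71337492) and Cd8a (ENSMUSG00000053977; 71373427 to 71379171) are neighbours on the same chromosome, 35934 bases apart. Zbtb7b (ENSMUSG00000028042) is on chromosome 3 from 89377644 to 89393673, and Runx3 (ENSMUSG00000070691) is on chromosome 4 from 135120645 to 135177990. RefSeq promoter sequences, 300 bases around a transcription start, were at hand for 3 of the 5 genes, Cd8a, Zbtb7b and Runx3. They were searched for the core motif of RUNX factors, ACCACA, on both strands, where the other strand reads TGTGGT. The upstream Runx3 promoter held 2 matches, 1 of the Zbtb7b promoters held 1, and the other Zbtb7b promoter, the other Runx3 promoter and the Cd8a promoter held none. Of 32851 RefSeq promoters of the same length, 16.8% held at least 1 match and 1.81% held 2 or more, so a match is common and is a description, not a binding site. These 2 promoters are shown because they hold the matches, which are in capitals.
Runx3, chr4:135120395-135120694, plus strand: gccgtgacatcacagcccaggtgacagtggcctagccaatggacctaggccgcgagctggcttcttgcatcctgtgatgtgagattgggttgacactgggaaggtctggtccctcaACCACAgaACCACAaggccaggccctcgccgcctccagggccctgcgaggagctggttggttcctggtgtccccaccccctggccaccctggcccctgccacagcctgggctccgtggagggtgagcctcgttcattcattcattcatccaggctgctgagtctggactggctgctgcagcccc
Zbtb7b, chr3:89387622-89387921, minus strand: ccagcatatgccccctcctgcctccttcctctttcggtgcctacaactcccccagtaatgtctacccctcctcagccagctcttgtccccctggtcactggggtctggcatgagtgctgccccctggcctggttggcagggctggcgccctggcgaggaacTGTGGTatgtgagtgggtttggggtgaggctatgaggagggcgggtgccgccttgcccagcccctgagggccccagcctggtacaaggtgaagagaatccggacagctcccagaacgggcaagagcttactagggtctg

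In the matrix, 1600 barcodes reached the UMI minimum for a cell, and 975 barcodes had a clonotype, of which 964 reached that minimum. These 964 cells held 1433 to 17444 UMIs with a median of 5096. At least 1 UMI of the 7 T cell markers was found in every cell of every coreceptor group described below. The cells were chosen by an assembled TCR, and the markers include the TCR constant genes Trac, Trbc1 and Trbc2. This is therefore no separate check of the label of T lymphocytes. Barcodes in which ribosomal protein genes held under 10% of UMIs, which stood apart from the rest, made up 15.8% of the cells. Markers of other cell types were low: over the 4 groups their summed rates per 10000 were 0.0255 to 0.355 for the 6 B cell, 0.209 to 0.995 for the 6 NK, 0.430 to 1.57 for the 6 monocyte, 1.25 to 1.85 for the 6 dendritic, 0.00849 to 0.580 for the 4 neutrophil, 0.0522 to 1.17 for the 4 platelet and 0.0356 to 0.127 for the 5 erythroid markers, against 33.8 to 39.3 for the T cell markers. Their part in the results was not tested.

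Cd8b1 was the most often detected of the 5 genes and Zbtb7b the least. Cd8b1 had a UMI in 547 of 964 cells, a share of 56.7% (53.5 to 59.9%), with 5062 UMIs or 8.68 per 10000 UMIs pooled over all cells. Cd8a had a UMI in 474 cells (49.2%, 46.0 to 52.4%), with 1749 UMIs or 3.0 per 10000. Both were counted at several UMIs per positive cell, with medians of 8 for Cd8b1 and 3 for Cd8a. Cd4 had a UMI in 303 cells (31.4%, 28.5 to 34.5%), with 666 UMIs or 1.14 per 10000. Runx3 was found in 410 cells (42.5%, 39.4 to 45.7%), with 797 UMIs or 1.37 per 10000. Zbtb7b was found in 54 cells (5.60%, 4.24 to 7.25%), with 61 UMIs or 0.105 per 10000. Detection of Zbtb7b, Runx3 and Cd4 therefore often rested on 1 molecule. That was the case for 88.9% of Zbtb7b-positive, 51.5% of Runx3-positive and 41.9% of Cd4-positive cells, but for 19.2% of Cd8a-positive and 6.95% of Cd8b1-positive cells. UMI counts were not scaled for transcript length or capture, so these values do not rank the genes by expression.

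Detection changed with the depth of a cell, and not in the same direction for each gene. Cd4 was found in 58.9% of the 90 cells under 2500 UMIs, in 44.4%, 36.2% and 29.8% of the next 3 depth classes, and in 10.2% of the 294 cells with 7500 UMIs or more. A Cd8a or Cd8b1 UMI was found in 18.9%, 33.2%, 56.4%, 64.2% and 88.8% of the same classes. Cd4 was thus found less often in the cells that were sampled more deeply. Runx3 went from 13.3% in the shallowest to 65.3% in the deepest class, and Zbtb7b stayed between 3.33% and 9.27%. When each of the 874 cells with at least 2500 UMIs was thinned to 2500 UMIs, leaving out the other 90, the expected shares were 21.7% for Cd4, 37.9% for Cd8a, 56.4% for Cd8b1, 2.96% for Zbtb7b and 25.1% for Runx3.

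**Figure D1:**
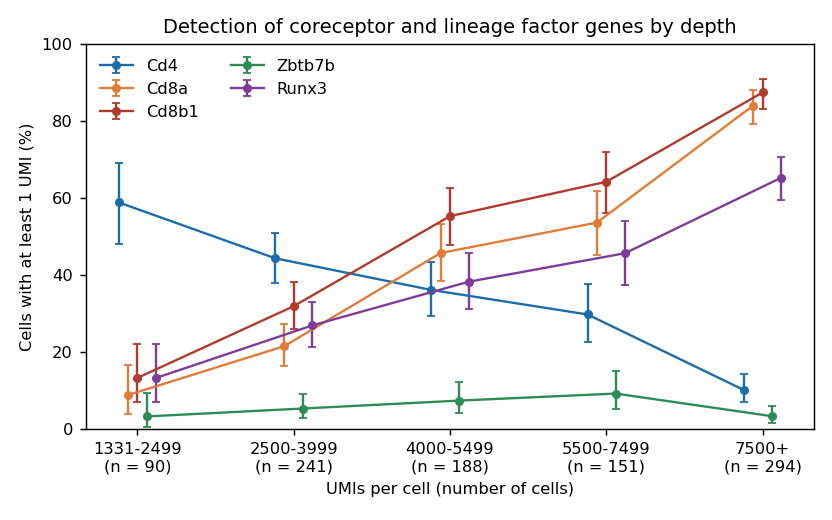
Share of clonotyped cells with at least 1 UMI of each gene (y axis, %) in 5 classes of UMIs per cell (x axis, with the number of cells), with exact 95% binomial intervals as bars. Cd4 falls from 58.9% to 10.2% from the shallowest to the deepest class while both CD8 genes and Runx3 rise and Zbtb7b stays under 10%.

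By their coreceptor UMIs the cells fell into 4 groups, and few held both coreceptors. Cd4 without CD8 (Cd4 only) was found in 266 cells, 27.6% (24.8 to 30.5%), and CD8 without Cd4 (CD8 only, from either chain) in 524 cells, 54.4% (51.2 to 57.5%). Both were found in 37 cells, 3.84% (2.72 to 5.25%), and neither in 137 cells, 14.2% (12.1 to 16.6%). The groups differed in depth. Median UMIs were 3858 in Cd4 only cells, 7293 in CD8 only cells, 3571 in cells with both and 3335 in cells with neither. CD8 only cells thus had the most RNA counted per cell and also the highest median share of ribosomal protein UMIs, 30.3% against 19.5% in Cd4 only cells, and values in depth classes are given for the coreceptors and for both factors between the groups.

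Detection of Cd4 and CD8 was largely exclusive. A CD8 UMI was found in 12.2% (8.75 to 16.4%) of cells with Cd4 and in 79.3% (76.0 to 82.3%) of cells without it. The gap had the same direction in each depth class, with 12.1% against 50% at 2500 to under 4000 UMIs and 23.3% against 96.2% at 7500 UMIs or more. Under 2500 UMIs it was 11.3% (4.27 to 23.0%) against 29.7% (15.9 to 47.0%), with intervals that overlap. Barcodes with at least 3 of 6 B cell marker genes and no clonotype, which should carry neither coreceptor, gave the background. Of these 92 barcodes, with a median of 3574 UMIs, 2.17% (0.264 to 7.63%) had a Cd4 UMI and 3.26% (0.678 to 9.24%) a CD8 UMI. The share of Cd4 cells with a CD8 UMI was higher than in these barcodes, with intervals that overlap. Free RNA, read from 20532 barcodes of 10 to 50 UMIs, carried Cd4 at 0.684, Cd8a at 1.32, Cd8b1 at 4.03, Zbtb7b at 0.192 and Runx3 at 0.552 per 10000.

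Most cells with both coreceptors held few CD8 molecules. In 31 of 37 the CD8 count was 1 to 3 UMIs, with 40 CD8 UMIs in all against 77 of Cd4, and in the other 6 it was 7 or more, with 63 CD8 UMIs against 10 of Cd4, a division made after the counts were seen. The 31 cells lay mostly among cells that are otherwise Cd4-positive: 25 were in the Cd4-rich clusters 1 and 6 described below, and none was in the CD8-rich clusters 2, 4, 5 and 7. The other 6 cells, with 4424 to 13858 UMIs, showed the reverse, with 3 in the CD8-rich clusters, 3 in cluster 3 and none in clusters 1 and 6. Cells with substantial counts of each gene were thus rare. In 23 of the 37 the CD8 call rested on 1 UMI, in 13 the Cd4 call did, in 8 both did, and 9 had at least 2 UMIs of each. The median CD8 count was 1 UMI in cells with both and 12 in CD8 only cells, while the median of Cd4 was 2 in cells with both and in Cd4 only cells. The pooled CD8 rate was 0.752 per 10000 (0.614 to 0.912) in all cells with Cd4 and 0.304 (0.217 to 0.414) in those with at most 3 CD8 UMIs, against 0.0832 (0.0172 to 0.243) in B marker barcodes. The pooled Cd4 rate was 0.211 per 10000 (0.169 to 0.261) in all 561 cells with CD8, against 0.0555 (0.00672 to 0.20) in B marker barcodes. Among the 405 cells with 7 or more CD8 UMIs it was 0.0301 (0.0144 to 0.0553). That cut was read from the cells with both and leaves out 31 of the 37, so the low Cd4 rate above it was largely fixed in advance. The rate of CD8 in the Cd4 cells with at most 3 CD8 UMIs and that of Cd4 in all CD8 cells were higher than in B marker barcodes, with intervals that overlap. Of the 37 cells, 3 had 2 or more productive TRB chains, 1 was a predicted doublet and 4 held over 10000 UMIs, and the part of doublets in them was not tested further.

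**Figure D2:**
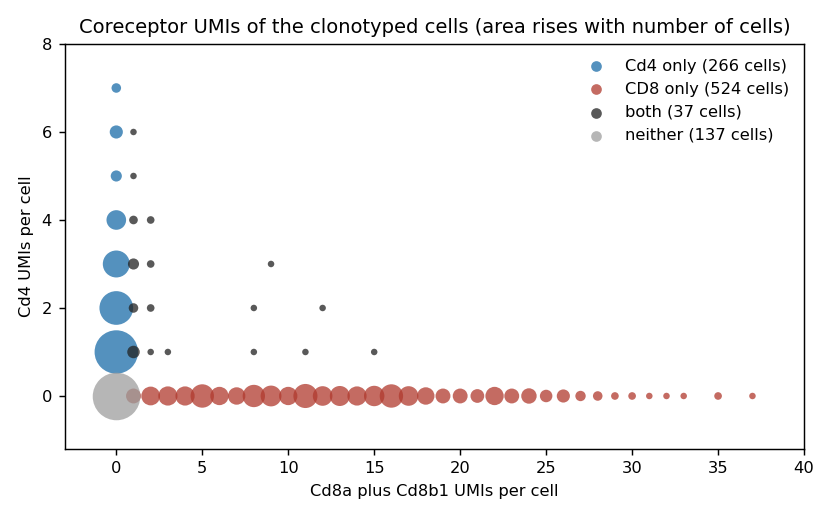
Cd4 UMIs per cell (y axis) against Cd8a plus Cd8b1 UMIs per cell (x axis) in the 964 clonotyped cells, with the area of a point rising with the number of cells at that pair of counts and the color giving the group. Nearly all cells lie on an axis, CD8 counts reach 37 and Cd4 counts 7, and of the 37 cells with both, 31 lie at 3 or fewer CD8 UMIs.

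The CD8 chains were found together. Of the 474 cells with Cd8a, 97.0% (95.1 to 98.4%) also had Cd8b1, and of the 547 cells with Cd8b1, 84.1% (80.8 to 87.1%) also had Cd8a. The latter share rose with depth, from 63.6% at 2500 to under 4000 UMIs to 94.6% at 7500 UMIs or more. Only 14 cells held Cd8a without Cd8b1, of which 10 had a single Cd8a UMI and 4 had a Cd4 UMI, so cells with the α chain alone, as CD8αα cells would be, were not resolved here. Cells with both chains seldom held Cd4, in 6 of 460 or 1.3% (0.480 to 2.82%), while 31.0% (21.5 to 41.9%) of the 87 cells with Cd8b1 alone did.

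The ratio of the chains' UMIs differed between CD8 only cells of different clusters. In all 524 CD8 only cells there were 4980 Cd8b1 and 1728 Cd8a UMIs, 2.88 Cd8b1 UMIs per Cd8a UMI (2.73 to 3.05), and this is a ratio of counts, not of chain levels. In the 84 CD8 only cells of cluster 7, led by the granzyme genes Gzma and Gzmk and the chemokine receptor gene Cx3cr1, the ratio was 4.37 (3.75 to 5.12). It was 2.44 (2.21 to 2.69) in cluster 2, led by Slc6a19 and Ccr9, and 2.28 (2.03 to 2.56) in cluster 5, with Dapl1 among its leading genes. Cluster 4, with Xcl1, Gzmm and Cd160, stood between them at 3.20 (2.85 to 3.6). Over all depths Cd8b1 was at 19.8 per 10000 (18.5 to 21.1) in cluster 7, with 12.7 in cluster 2 and 12.5 in cluster 5, while Cd8a was at 4.53 (3.93 to 5.19) against 5.22 and 5.47. Cluster 7 was shallower, with a median of 4909 UMIs against 7555 and 7726. Among cells of 2500 to under 5500 UMIs, a range chosen after the data had been seen, the ratio was 4.76 (3.78 to 6.06) in cluster 7, 2.25 (1.83 to 2.77) in cluster 2 and 1.89 (1.38 to 2.61) in cluster 5. In that range both chains differed: Cd8b1 was at 20.1 per 10000 (18.2 to 22.1) in cluster 7, with 14.7 (13.1 to 16.4) and 13.5 (11.2 to 16.2) in clusters 2 and 5. Cd8a was lower in cluster 7, at 4.21 (3.38 to 5.19), with 6.55 (5.5 to 7.73) and 7.15 (5.5 to 9.15) in the other two. The ratio was also 4.45 (3.57 to 5.61) in the cluster 7 cells whose clonotype was seen once, and 4.21 (3.56 to 4.99) without the 2 largest clonotypes. Overlap of reads between Cd8b1 and other genes was not examined.

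A noncoding gene beside Cd8a was found almost only in cells with CD8. Gm44174 (ENSMUSG00000108289) lies between Cd8b1 and Cd8a in the GENCODE vM39 annotation of GRCm39. It was found in 368 of 524 CD8 only cells, 70.2% (66.1 to 74.1%), with 1004 UMIs, and in 1 of 266 Cd4 only cells with 1 UMI. The rates were 2.56 per 10000 (2.40 to 2.72) and 0.00849 (0.000215 to 0.0473). In cells with both coreceptors it was at 0.678 per 10000 and in cells with neither at 0.261. Reads of this gene and of the neighbouring Cd8a cannot be told apart where their transcripts overlap or run on, which was not examined.

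Zbtb7b and Runx3 divided along the coreceptors. Zbtb7b was found in 32 of 266 Cd4 only cells, 12.0% (8.38 to 16.6%), with 36 UMIs, and in 6 of 524 CD8 only cells, 1.15% (0.421 to 2.48%), with 6 UMIs. The pooled rates were 0.306 per 10000 (0.214 to 0.423) and 0.0153 (0.00561 to 0.0332), a ratio of 20 (8.35 to 58.1). Although CD8 only cells were deeper, they held fewer molecules. Thinned to 2500 UMIs, the expected shares of cells were 7.15% of Cd4 only and 0.438% of CD8 only cells. The ratio was 7.18 (1.49 to 68.3) at 4000 to under 5500 UMIs, 25.5 (3.70 to 1096) at 5500 to under 7500 and 27.7 (6.33 to 166) at 7500 or more, and at 2500 to under 4000 UMIs there were 8 Zbtb7b UMIs in Cd4 only cells and none in CD8 only cells. In cells with a ribosomal share of 10% or more the ratio was 25.5 (9.94 to 83.3). With a share under 10% it was 1.45 (0.0185 to 114), from 1 UMI in 53 Cd4 only and 1 in 56 CD8 only cells, so the division was not resolved there. B marker barcodes had Zbtb7b at 0.222 per 10000 (0.0958 to 0.437), in 8.70% (3.83 to 16.4%) of barcodes. The level in Cd4 only cells cannot be told apart from this. The free RNA rate of 0.192 (0.110 to 0.312) is the rate within free RNA, not what free RNA adds to a cell. If free RNA made up 5% of the UMIs of a cell, an assumed share, it would give 1.13 Zbtb7b UMIs in Cd4 only cells, where 36 were found. In CD8 only cells it would give 3.77, where 6 were found. Whether the B marker barcodes express Zbtb7b was not tested.

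Runx3 had the opposite order. It was found in 320 of 524 CD8 only cells, 61.1% (56.7 to 65.3%), with 670 UMIs, and in 50 of 266 Cd4 only cells, 18.8% (14.3 to 24.0%), with 59 UMIs. The rates were 1.71 per 10000 (1.58 to 1.84) and 0.501 (0.381 to 0.646), a ratio of CD8 only over Cd4 only of 3.40 (2.61 to 4.52). Thinned to 2500 UMIs, the expected shares were 33.1% and 11.0%. The ratio lay between 2.47 and 6.95 in the 5 depth classes. In the shallowest, with 11 CD8 only cells, its interval reached down to 0.531, and in the other 4 the lower bound was 1.73 or higher. B marker barcodes had Runx3 at 0.555 per 10000 (0.339 to 0.857), so Cd4 only cells could not be told apart from those barcodes and CD8 only cells were above them. At the assumed free RNA share of 5%, free RNA would give 3.25 Runx3 UMIs in Cd4 only cells, where 59 were found. In CD8 only cells it would give 10.8, where 670 were found. Whether the B marker barcodes express Runx3 was not tested.

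**Figure D3:**
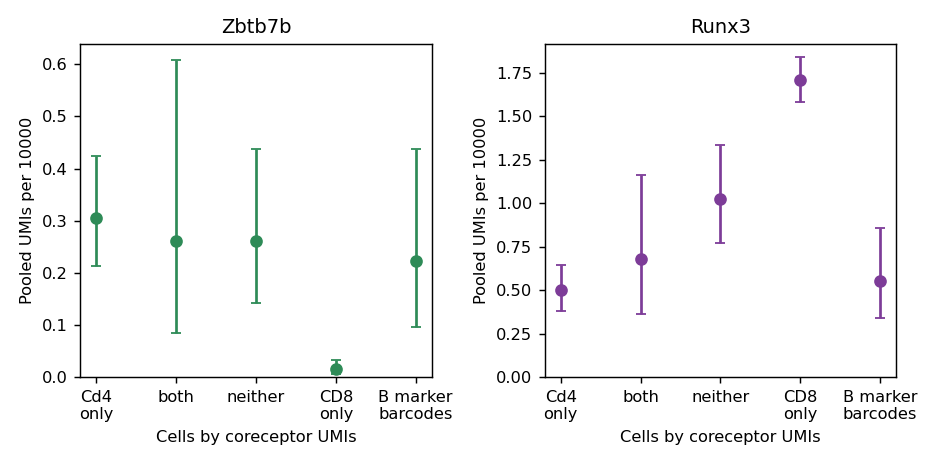
Pooled UMIs per 10000 of Zbtb7b (left) and Runx3 (right) in cells with Cd4 only, both coreceptors, neither and CD8 only, and in B marker barcodes, with exact 95% Poisson intervals as bars. CD8 only cells are lowest for Zbtb7b at 0.0153 and highest for Runx3 at 1.71.

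The Runx3 level varied within the CD8 only cells. It was 2.24 per 10000 (1.83 to 2.72) in cluster 7 against 1.44 (1.22 to 1.68) in cluster 2, 1.29 (1.05 to 1.57) in cluster 5 and 1.54 (1.32 to 1.78) in cluster 4. Over all clusters the rate was 2.59 in CD8 only cells of 4000 to under 5500 UMIs and 1.41 in those of 7500 or more, and cluster 7 was shallower than clusters 2, 4 and 5. Among cells of 2500 to under 5500 UMIs the rate was 2.87 (2.19 to 3.70) in the 50 cells of cluster 7 and 1.52 (1.04 to 2.14) in the 52 of cluster 2. It was 1.70 (0.953 to 2.81) in the 20 of cluster 5 and 2.46 (0.987 to 5.06) in the 7 of cluster 4. At matched depth the interval of cluster 7 therefore overlaps those of clusters 5 and 4. Over all depths the rate was highest among these 5 clusters, at 4.07 (3.28 to 4.98), in cluster 3, where 119 of 135 cells of all groups had a low ribosomal share. CD8 only cells with a ribosomal share under 10% had Runx3 at 4.58 (3.76 to 5.52), against 1.52 (1.40 to 1.65) in the others. In the matched depth range it was 5.18 (4.17 to 6.36) against 1.92 (1.56 to 2.34). Cd8a and Cd8b1 were read over all depths only, with median UMIs of 3924 against 7816. Cd8a was at 2.69 against 4.51 and Cd8b1 at 8.82 against 12.9 per 10000. In Cd4 only cells Runx3 was alike in cells of low and other ribosomal share, at 0.549 (0.251 to 1.04) and 0.493 (0.366 to 0.650). The ratio of CD8 only over Cd4 only without the low ribosomal barcodes was 3.08 (2.31 to 4.20). Cells with a UMI of both factors were 13 of the 54 with Zbtb7b, 8 of them Cd4 only and 4 CD8 only. Runx3 was found in 24.1% of cells with Zbtb7b and in 43.6% of the others. Within Cd4 only cells these shares were 25% and 17.9%. Within CD8 only cells they were 66.7%, from 6 cells, and 61.0%, so the lower share over all cells was not seen within these groups.

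Cells with neither coreceptor had a Runx3 level between the groups and a Zbtb7b level that could not be told apart from that of Cd4 only cells. Zbtb7b was found in 11 of 137, 8.03% (4.08 to 13.9%), at 0.261 per 10000 (0.143 to 0.438), and Runx3 in 31, 22.6% (15.9 to 30.6%), at 1.03 (0.773 to 1.34). They fell into different clusters. Of the 137, 67 lay in the Cd4-rich clusters 1 and 6, or 48.9% (40.3 to 57.6%), and 27 in the CD8-rich clusters 2, 4, 5 and 7, or 19.7% (13.4 to 27.4%). These 67 held Cd40lg, which encodes the helper ligand CD40L, in 23.9% (14.3 to 35.9%) of cells, Zbtb7b in 8.96% (3.36 to 18.5%) and Runx3 in 16.4% (8.49 to 27.5%). Of Cd4 only cells, 42.9% rested on 1 Cd4 UMI, and of CD8 only cells, 2.29% rested on 1 CD8 UMI. The share of cells with neither fell with depth, from 28.9% and 27.8% in the 2 shallowest classes to 3.40% at 7500 UMIs or more.

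In cluster 4 the cells with neither coreceptor differed from the CD8 only cells beside them in some of the genes read. These 15 cells had 1433 to 12486 UMIs with a median of 6785, and all held Nkg7 and Cd3e. Klrb1c, which encodes the receptor NK1.1, was found in 8 of 15 (53.3%, 26.6 to 78.7%), against 2 of 110 CD8 only cells of the cluster (1.82%, 0.221 to 6.41%). Zbtb16, which encodes PLZF, the factor of innate-like T cells, was found in 4 of 15 (26.7%, 7.79 to 55.1%) and in 0 of 110, with a limit of 2.73%. Either was found in 9 of the 15, and in 0 of the 122 cells with neither coreceptor of the other clusters, with a limit of 2.46%. Il2rb, the IL-2 receptor β chain, had a pooled rate of 10.6 per 10000 (8.66 to 12.8), and the CD8 only cells of cluster 4 had 4.86 (4.46 to 5.28). Klrd1, the CD94 receptor gene, was at 5.85 (4.44 to 7.56) against 3.28 (2.95 to 3.63). For Runx3, Nkg7 and Ly6c2 the intervals overlapped. Runx3 was at 1.61 (0.922 to 2.62) against 1.54 (1.32 to 1.78), Nkg7 at 13.3 (11.1 to 15.8) against 11.6 (11.0 to 12.2) and Ly6c2 at 17.4 (14.9 to 20.2) against 19.4 (18.6 to 20.3). Zbtb7b was found in 0 of the 15 (exact limit 21.8%) and in 2 of the 110. Trdc, the TCR δ constant gene, was found in 2 of the 15 and in 3 of the 110. Its rates were 1.01 per 10000 (0.483 to 1.85), from 10 UMIs, and 0.0706 (0.0305 to 0.139). Klrb1c and Zbtb16 took part in the clustering, so this is a description and no test. TRAV11 with TRAJ18, the invariant α chain of NKT cells, was found in 3 cells, 2 with neither coreceptor and 1 with Cd4 only, and TRAV1 with TRAJ33, the chain of MAIT cells, was found in none. The unconventional T cell list of 9 genes had no gene with 100 pooled UMIs in Cd4 only and CD8 only cells. In cells with neither coreceptor, Tcrg-C2 and Tcrg-C4, constant genes of the γ chain, were at 12 UMIs each, and Klrb1c at 15 UMIs was at 0.280 per 10000 (0.157 to 0.462) against 0.0535 (0.0331 to 0.0817) in CD8 only cells.

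The clusters were built from other genes, with the 5 genes and TCR genes left out, and divided by coreceptor. Gm44174, described above, was among the genes used. With it left out as well, a setting added after seeing the data, 9 clusters were found again, of which 2 had 64.6% and 69.1% Cd4 only cells and 4 had 86.6% to 98.5% CD8 only cells. In cluster 1 (183 cells, led by Ly6c1, Igfbp4 and Cd40lg) 72.1% (65.0 to 78.5%) of cells had Cd4, and in cluster 6 (98 cells, led by Gpm6b, Tnfrsf4, Maf and Nrp1) 77.6% (68.0 to 85.4%) did. CD8 only cells made up 98.1% of cluster 2, 90.3% of cluster 5, 89.4% of cluster 7 and 86.6% of cluster 4. Zbtb7b was found in 17.3% (10.4 to 26.3%) of cluster 6 and 9.84% (5.93 to 15.1%) of cluster 1, and in 0 of 157 cells of cluster 2 (limit 1.91%, exact limit 2.32%). The other CD8-rich clusters had it in 5.32% (1.75 to 12.0%) of cluster 7, 1.57% (0.191 to 5.57%) of cluster 4 and 0.885% (0.0224 to 4.83%) of cluster 5. The interval of cluster 7 overlaps those of clusters 1 and 6. These shares cover all cells of a cluster, and among the 84 CD8 only cells of cluster 7 Zbtb7b was found in 2, or 2.38%. Cluster 3 held 52 Cd4 only, 45 CD8 only, 7 cells with both and 31 with neither, and cluster 8, with interferon-induced genes, and cluster 9, with platelet genes, were mixed as well. Of CD8 only cells, 85.9% (82.6 to 88.7%) lay in clusters 2, 4, 5 and 7, and of Cd4 only cells, 68.8% (62.9 to 74.3%) lay in clusters 1 and 6.

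**Figure D4:**
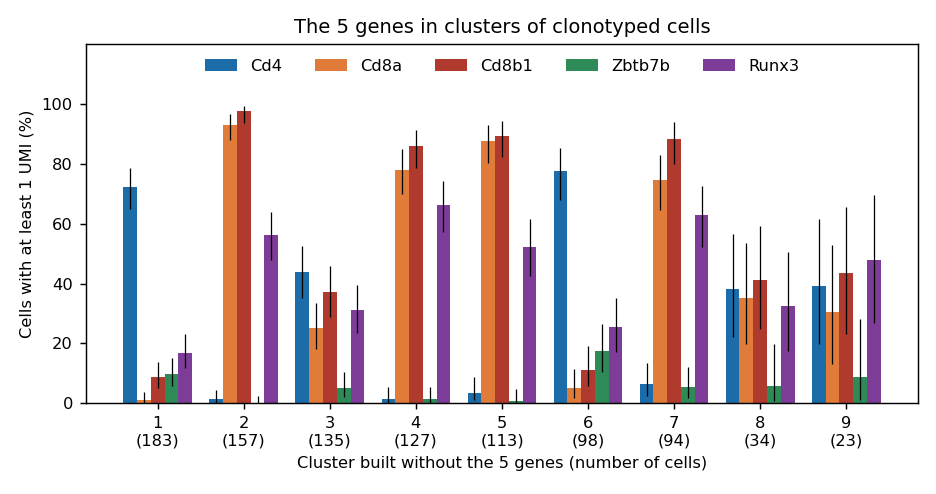
Share of cells with at least 1 UMI of each of the 5 genes (y axis, %) in 9 clusters built without them (x axis, with the number of cells), with exact 95% binomial intervals. Cd4 reaches 72.1% and 77.6% in clusters 1 and 6, Cd8b1 is high in clusters 2, 4, 5 and 7, and clusters 3, 8 and 9 are mixed.

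Cells of 1 clonotype, which stem from a common ancestor after TCR rearrangement, carried the same coreceptor in every case that could be read. There were 918 clonotypes, of which 24 had 2 or more cells, 70 cells in all. In 23 of the 24, at least 2 cells had a coreceptor UMI, and all 23 agreed (85.2 to 100%). All 106 pairs of cells from the same clonotype had the same coreceptor, against 55.3% of 311549 pairs from different clonotypes. The former come from 55 CD8 only and 12 Cd4 only cells, the latter from all 524 and 266, so the sets of pairs differ in composition. Without the 2 largest clonotypes 42 pairs were left, and all had the same coreceptor. Of the 23, 17 were CD8 and 6 Cd4, and the remaining clonotype, number 27, had 2 cells of neither. Grouping cells by their TRB V gene and CDR3 instead gave 25 groups, all in agreement. All 5 clonotypes of 4 or more cells were CD8. Cells of clonotypes with 2 or more cells made up 10.5% (8.01 to 13.4%) of CD8 only cells and 4.51% (2.35 to 7.75%) of Cd4 only cells, while 0 of the 37 cells with both coreceptors belonged to one, with a limit of 8.11% (exact limit 9.49%). Cells of 1 clonotype are not separate draws, so these intervals are too narrow to compare the groups. Of the 55 such CD8 only cells, the 2 largest clonotypes gave 9 and 8. None of the cells that set the clonotypes had both coreceptors, so agreement was read among cells with 1 coreceptor.

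The nucleotide sequences of the third complementarity-determining region (CDR3) are shown for the clonotypes of 3 or more cells and 2 further Cd4 clonotypes. They run 5′ to 3′ as assembled in the contig table, and capitals mark bases that match neither the V nor the J germline segment of GENCODE vM39. These are D segment and junction bases in a β chain, and junction bases only in an α chain. For clonotype 6 the α chain is given, because the germline of its TRBV10 segment could not be matched. Only 1 chain is shown for each clonotype, and clonotype 3 also held a second β chain, with TRBJ1-5.
Clonotype 1, CD8, TRBV12-2 and TRBJ1-6: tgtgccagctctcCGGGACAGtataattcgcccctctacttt
Clonotype 2, CD8, TRBV1 and TRBJ1-4: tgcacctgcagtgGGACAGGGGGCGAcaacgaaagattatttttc
Clonotype 3, CD8, TRBV15 and TRBJ2-5: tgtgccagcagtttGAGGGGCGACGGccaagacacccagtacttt
Clonotype 4, CD8, TRBV16 and TRBJ2-5: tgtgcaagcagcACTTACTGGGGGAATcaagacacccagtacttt
Clonotype 5, CD8, TRBV12-2 and TRBJ2-7: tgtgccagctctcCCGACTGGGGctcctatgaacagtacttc
Clonotype 7, CD8, TRBV16 and TRBJ1-3: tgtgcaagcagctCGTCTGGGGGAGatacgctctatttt
Clonotype 6, Cd4, TRAV9N-4 and TRAJ13: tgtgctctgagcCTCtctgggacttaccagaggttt
Clonotype 9, Cd4, TRBV13-1 and TRBJ2-7: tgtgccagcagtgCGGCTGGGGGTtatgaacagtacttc
Clonotype 21, Cd4, TRBV19 and TRBJ1-6: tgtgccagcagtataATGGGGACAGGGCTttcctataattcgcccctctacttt

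Clonotype 1 had 9 cells, all CD8 only, with 3661 to 6616 UMIs and 66 Cd8b1, 18 Cd8a and 15 Runx3 UMIs. Cd8b1 was found in all 9 at 2 to 11 UMIs per cell, and Cd8a in 8 of 9. It also held 2 cells with 1 Zbtb7b UMI each, which are 2 of the 6 Zbtb7b-positive CD8 only cells. Clonotype 2 had 8 cells in cluster 7, with 104 Cd8b1 UMIs at 2 to 25 per cell but 15 Cd8a UMIs, from 4 of 8 cells. Its Cd8b1 to Cd8a ratio was 6.93 (4.02 to 12.8), while clonotype 14, of 2 cells in cluster 5, had 16 Cd8b1 and 17 Cd8a UMIs, a ratio of 0.941 (0.445 to 1.98). These 2 clonotypes were named after their values were seen. Clonotype 3 had 5 cells, clonotypes 4 and 5 had 4 each and clonotype 7 had 3, all CD8 only, and between 2 and 4 cells of each lay in cluster 7. No cell of clonotype 4 had a Runx3 UMI, at 3777 to 8282 UMIs per cell, while clonotype 7 had one in each of its 3 cells. Clonotype 6 had 3 cells in cluster 6, of which 2 were Cd4 only with 5 and 2 Cd4 UMIs and the third had no coreceptor UMI at 8069 UMIs. In CD8 only cells Runx3 was at 2.34 per 10000 (1.82 to 2.96) in clonotypes of 2 or more cells and 1.66 (1.53 to 1.79) in those seen once. The former were shallower, with a median of 5116 UMIs against 7815. Among cells of 2500 to under 5500 UMIs the rates were 2.92 (2.09 to 3.98) and 2.70 (2.29 to 3.17), a difference within the counting error.

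**Figure D5:**
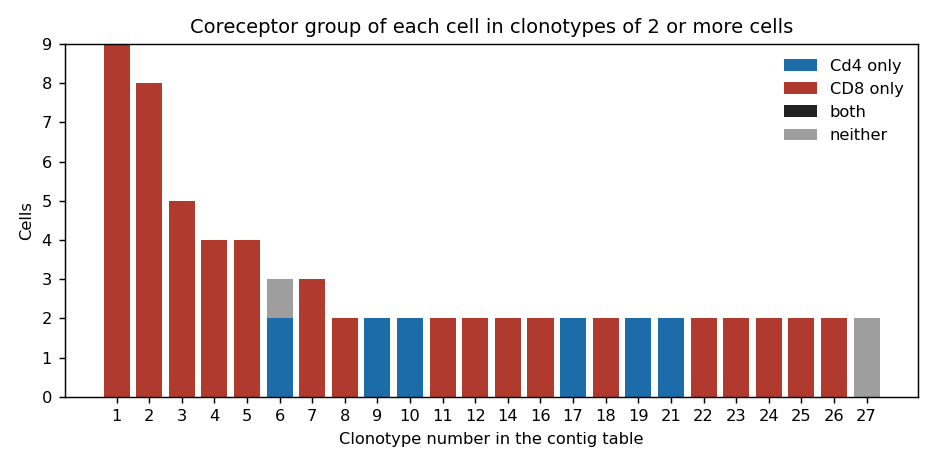
Number of cells (y axis) in each of the 24 clonotypes with 2 or more cells (x axis, clonotype number), stacked by coreceptor group. In no clonotype do Cd4 only and CD8 only cells occur together, and the 5 with 4 or more cells are CD8.

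Helper lineage genes were mostly higher in Cd4 only cells and cytotoxic lineage genes in CD8 only cells, by pooled UMIs. With 6231 genes of at least 100 UMIs in both groups together, 253 genes (4.06%) were at least 2-fold higher in Cd4 only and 108 (1.73%) in CD8 only cells, and the median log2 ratio of all genes was 0.24. Together these are 361 genes (5.79%). This is a size rule in 1 library and not a test, and within cells of 2500 to under 5500 UMIs, where 2399 genes were read, it was met by 94. Of these, 48 were higher in Cd4 only and 46 in CD8 only cells, and the median log2 ratio of the 2399 genes was 0.019. The larger number of genes higher in Cd4 only cells was thus not seen at matched depth. Genes of the ends that were at 0 in Cd4 only cells were set against a floor of 3 UMIs over that group.

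Of 11 helper genes read, 9 were higher in Cd4 only cells and none in CD8 only cells, with a median log2 ratio of 1.72. This list and those below were chosen with earlier results of these data known, so counts over them are a description and no support. Cd40lg was at 1.44 against 0.00764 per 10000, a ratio of 189 (63.6 to 926) from 170 and 3 UMIs. St8sia6, a sialyltransferase gene, had a ratio of 54.3 (31.7 to 101). The folate receptor family gene Izumo1r had 10.6 (7.15 to 16.1), Ctla4 4.28, Ikzf2 3.58, Icos 3.30, Cd5 2.61, Rora 2.39 and Cd28 2.25, while Cd82, at 1.36, did not reach 2-fold. Cd40lg, St8sia6, Izumo1r and Ctla4 had under 100 UMIs in CD8 only cells. They met the minimum of pooled UMIs through the Cd4 only cells in which they were high, so the count of 9 depends in part on the minimum. At matched depth 5 of the 9 genes read were higher in Cd4 only cells. Tnfrsf4, Foxp3 and Il2ra were listed but fell below the minimum of pooled UMIs. Their UMIs in Cd4 only and CD8 only cells were 57 and 7, 26 and 5, and 9 and 6. Among the genes read, Ly6c1 (36.1), Tbc1d4 (12.2) and Itgb3 (10.9) were the other genes of the 5 highest ratios. These also met the minimum through Cd4 only cells.

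Of 15 cytotoxic genes read, 14 were higher in CD8 only cells, with a median log2 ratio of -2.37, and at matched depth all 6 read were. The exception was Tbx21, which encodes T-bet, at 1.38-fold (0.960 to 2.02). The minimum of pooled UMIs is met more easily by genes high in CD8 only cells. That group held 3927916 UMIs, against 1177322 in Cd4 only cells, so the count of 14 depends in part on the minimum. Cd160 and Xcl1, listed but below the minimum, were also higher in CD8 only cells, at 12.9-fold (3.46 to 108) and 8.24-fold (2.18 to 69.8). Ccl5, a chemokine gene, was 4.97-fold higher (4.68 to 5.27) with 49.5 UMIs per 10000. Its UMIs came from part of each group, 19438 in 237 of 524 CD8 only cells and 1173 in 29 of 266 Cd4 only cells. Nkg7 was 7.50-fold higher (6.42 to 8.80) and the cathepsin W gene Ctsw 5.60-fold higher (4.55 to 6.96). Gzma was 42.1-fold higher (14.3 to 205), with 421 UMIs in 31 CD8 only cells, up to 51 in 1 cell, and 3 in 1 Cd4 only cell, and Klrd1, the CD94 receptor gene, 12.6-fold higher (8.77 to 18.7). The others were Gzmb at 6.38, Itgae at 6.0, Cst7 at 5.17, Crtam at 5.0, Eomes at 4.92, Klrk1 at 4.23, Prf1 at 4.09 and Gzmk at 3.69-fold. Gzmm had 111 UMIs in 56 CD8 only cells and none in Cd4 only cells, at least 11.1-fold higher over the floor, with an exact lower limit of 8.87. Of the other genes at this end, Adgrg5 was 58.7-fold higher (10.4 to 2332), from 152 cells against 1, and 1700062C10Rik at least 9.99-fold over the floor, with an exact lower limit of 7.98, from 33 cells against none. S100a8, a neutrophil gene, had 116 UMIs in 2 CD8 only cells, 115 of them in 1 cell, and the summed neutrophil markers had 228 UMIs in 4 CD8 only cells, so this value rests on single cells.

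The factors of lineage commitment and the partners of the coreceptors were read by the same rule. Of 16 commitment factors read, 3 were at least 2-fold higher in Cd4 only cells and none in CD8 only cells, with a median log2 ratio of 0.64. They were Runx1 at 3.88 (3.39 to 4.44), Satb1 at 2.13 (1.97 to 2.31) and Gata3, which supports the helper fate, at 2.11 (1.61 to 2.76). The most abundant, Lef1, Ets1 and Tcf7, had ratios of 1.63, 1.88 and 1.5. Runx1, the paralog of Runx3, was thus higher in the group in which Runx3 was lower. Of 12 partners of the coreceptors, 1 was higher in Cd4 only cells, Cd247, the TCR ζ chain gene, at 2.02 (1.84 to 2.20), and their median log2 ratio was 0.20. This is to be read beside the 5.79% of all genes past 2-fold in either direction. At matched depth 1 of 11 commitment factors and 0 of 11 partners with enough UMIs were past 2-fold. Lck, the kinase that both coreceptors bind, was at 6.11 and 5.81 per 10000, a ratio of 1.05 (0.966 to 1.14), and Ptprc, Cd3e and Cd3d were at 1.27, 1.14 and 1.03.

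Across the 964 cells the genes most like each of the 5, by Pearson's r of ln(1 + UMIs per 10000), are given as a description, since cells share a library and differ in depth. The nearest to Cd4 were Cd40lg (0.42), Malat1 (0.38) and Tspan32 (0.36). The nearest to Cd8a were Cd8b1 (0.79), Nkg7 (0.55) and Ctsw (0.49), and to Cd8b1 they were Cd8a, Nkg7 (0.67) and Gm44174 (0.60). The nearest to Runx3 were Nkg7 (0.36), Gm44174 (0.32) and Cd8b1 (0.31). Values for Zbtb7b were low, at 0.19 for Ptms and 0.16 for S100a4, as its counts were mostly 0 or 1.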

How the data were processed

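The authors processed the reads with Cell Ranger (version 4 in the matrix header; build GRCm38 per the submitters' processing notes) and deposited unfiltered UMI counts, not normalized, for all genes and barcodes, with a contig table with V, J, CDR3 and clonotype of each contig. The V(D)J reference is not given in the sources used here. Called cells had at least 1331 UMIs, and cells used had a clonotype too; clonotypes are the authors'. The 5 genes and the gene lists were chosen with earlier results of these data known.

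From these counts, shares were given exact binomial and rates exact Poisson 95% intervals, and ratios of rates exact conditional intervals, with a floor of 3 counts where a count was 0. Thinned shares are expected values at 2500 UMIs. Genes were compared by pooled UMIs, at least 100 in both groups together, at a 2-fold rule. Named are the 5 genes, the 3 genes with most UMIs of each list and any listed gene past 2-fold, the 5 highest and 5 lowest ratios, the 3 genes most like each member among genes in at least 5% of cells without TCR, immunoglobulin, mitochondrial and ribosomal genes, and clonotypes of 3 or more cells. Of these, 1 gene is not reported here. Clustering used Scanpy 1.11.5 (Python 3.11.15), 2000 variable genes, 30 components, 15 neighbours and resolution 1.0, without the 5 genes and TCR genes. Scrublet marked 10 of 1600 barcodes as doublets (0.625%), and they were kept. Free RNA came from barcodes of 10 to 50 UMIs. The functions were tested on simulated counts. Groups were read from the labels, and 1 library allowed no replicate test. Alternatives changed the UMI minimum, the detection rule, thinning, doublets, ribosomal share, chain count, clonotype rule and pooling.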

Additional observations from a re-analysis of the deposited data

Results flagged for a closer look

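Barcodes without a clonotype were not used in the comparisons. Of 544 called barcodes with no clonotype and fewer than 3 B markers, 305 held a coreceptor UMI, 56.1% (51.8 to 60.3%), where a count of 0 would allow 0.551%. In the 92 B marker barcodes, the measured background, 2.17% had Cd4 and 3.26% had CD8. Cd4 only made up 18.6%, CD8 only 35.3%, both 2.21% and neither 43.9% of them. These barcodes had a median of 2865 UMIs and a median ribosomal share of 2.22%, and 383 of them had a UMI of Cd3d, Cd3e or Cd3g. In the 161 without one, Cd4 was found in 12.4% and Cd8b1 in 19.3%. Runx3 was at 1.88 per 10000 (1.68 to 2.09) and Zbtb7b at 0.124 (0.0774 to 0.187) in the 544. Why these barcodes have no clonotype was not tested.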

How the results depend on the processing

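Of 95 values recomputed under 16 settings, 72 stayed within the counting error or 1.5-fold of a count, 23 moved and 0 changed direction. Only the Zbtb7b and Runx3 ratios could be scored as changed in direction. Asking for 2 UMIs moved the share of cells with Cd4 to 18.3%, CD8 to 54.6%, both to 0.934%, neither to 28.1%, Zbtb7b to 0.622% and Runx3 to 20.6%. Thinning to 2500 UMIs gave 21.7% Cd4, 1.92% both, 21.4% neither, 2.96% Zbtb7b and 25.1% Runx3, and thinning to 1500 UMIs gave 18.7% Cd4, 50.3% CD8, 1.22% both, 32.2% neither, 1.91% Zbtb7b and 16.4% Runx3. CD8 was 62.2% with a minimum of 2500 UMIs and 61.5% without low ribosomal barcodes. In cells of 2500 to under 5500 UMIs, a setting chosen after seeing the data, the Runx3 ratio of Cd4 only over CD8 only was 0.168 (main value 0.294). Genes 2-fold apart numbered 657 with 50 and 110 with 300 pooled UMIs and 94 at matched depth, against 361; fewer genes were read in the last 2 settings. The Zbtb7b ratio ran from 9.77 to 52.1 and the share of agreeing clonotype pairs was 100% in each setting. Settings that only left out cells could not lower that share, because all pairs agreed in the main setting. No paired analysis was possible because there is 1 library and no test. Depth limits all shares of cells with a UMI.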
